A study of Homo sapiens with 8 samples.

Results

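Keratins are the intermediate filament proteins of epithelial cells. This section follows the transcripts of 10 of them in KYSE150, a cell line established from a human squamous cell carcinoma of the esophagus, after knockdown of the RNA-binding protein HNRNPC. The 10 were chosen by name, with earlier results of these data known. Each has a row in the deposited count table, which holds 16082 genes, 38 of them keratins. KRT5, KRT6A, KRT14, KRT15, KRT16 and KRT17 are here called the squamous keratins, and KRT7, KRT8, KRT18 and KRT19 the simple keratins. Poly(A) RNA was sequenced from 4 control samples (genotype Control) and 4 samples of genotype ShHNRNPC (written shHNRNPC below), which carry a short hairpin RNA against HNRNPC, and neither group received a treatment. The labels do not give the hairpin sequence, the number of hairpins, whether the cells are 1 clone, or separate cultures for the samples. The p-values therefore cover the scatter among these 8 samples alone, and that scatter may be technical.

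A keratin filament is a heteropolymer. A type I keratin (KRT14 to KRT19 among these 10) pairs with a type II keratin (KRT5, KRT6A, KRT7 and KRT8), and partners are usually made together. Basal cells of stratified squamous epithelium such as the esophageal lining make KRT5 with KRT14 and KRT15, whereas KRT6A, KRT16 and KRT17 are induced on wounding, in fast growth and in squamous carcinoma. KRT8 and KRT18 form the filaments of single-layered epithelia, often with KRT7 and KRT19.

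Because keratin genes arose by duplication, the sequences decide how far their reads can be told apart. The coding sequences of KRT14 and KRT16 were 88.6% identical, those of KRT14 and KRT17 84.7%, and those of KRT16 and KRT17 79.3%. The 60 coding bases where this trio was most alike lie in exon 1 of each gene, on the minus strand of chromosome 17 (GRCh38, GENCODE release 29 transcripts). They are shown because the 3 genes moved differently, and capitals mark bases that differ from KRT17.
KRT17, chr17:41624192-41624251: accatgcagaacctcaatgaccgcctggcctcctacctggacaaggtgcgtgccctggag
KRT16, chr17:41612272-41612331: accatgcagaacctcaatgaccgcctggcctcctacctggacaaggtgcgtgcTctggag
KRT14, chr17:41586424-41586483: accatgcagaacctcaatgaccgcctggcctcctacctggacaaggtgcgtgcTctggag
Within this window KRT16 and KRT14 each differed from KRT17 at 1 base. Over the whole KRT17 transcript, however, 0% of the 150-base words (the read length) occurred in a transcript of another gene, against 0.736% for KRT16 and 0.595% for KRT14.

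KRT6A has closer copies. Its coding sequence was 97.5% identical to that of KRT6B and 97.9% to that of KRT6C, and 9.26% of its 150-base words occurred in one of them. The 60 coding bases where the copies differed most lie in exon 2, on the minus strand of chromosome 12, with capitals for bases that differ from KRT6A.
KRT6A, chr12:52491555-52491614: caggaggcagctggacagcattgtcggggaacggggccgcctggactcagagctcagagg
KRT6B, chr12:52450439-52450498: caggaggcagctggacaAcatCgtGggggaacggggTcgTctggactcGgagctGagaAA
KRT6C, chr12:52472099-52472158: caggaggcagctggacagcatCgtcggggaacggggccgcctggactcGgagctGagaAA
KRT6B differed from KRT6A at 9 of these 60 bases and KRT6C at 5. In the count table KRT6A held 92.3% to 99.0% of the counts of the trio in each library, and neither KRT6B nor KRT6C exceeded 9 counts anywhere. KRT6A is nevertheless reported as uncertain to the extent that the counting, which is not described in the sources used here, split shared reads.

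Library totals ranged from 28323403 to 34913500 counts. Replicate libraries differed by more than sampling noise (chi-square per degree of freedom of 2.66 to 3.70 in a group, 109 to 124 across groups), and none repeats another. HNRNPC stood at 571 to 601 CPM in the control libraries and 32.5 to 36.5 CPM in the shHNRNPC libraries, lower in every library labelled as knockdown. CPM here are counts scaled by total and TMM factor. Other markers of squamous epithelium were present: 11 of 12 passed the low-count filter, with SOX2 the exception, and TP63, the master regulator of the squamous lineage, had 176 ± 2.14 CPM (SD, n = 4) in the control samples. Of 15 markers of columnar epithelium 10 had a row in the count table, and of these only GATA6 passed the filter, at 7.02 ± 0.629 CPM in the control samples.

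The knockdown went with opposite changes inside both classes of keratin. KRT5, KRT17, KRT8 and KRT18, the 4 most abundant, rose between 1.47-fold and 3.24-fold. KRT6A, KRT14, KRT15 and KRT7 fell to between 32.5% and 58.5% of control, KRT16 rose slightly from a low level, and KRT19 was almost absent. In bulk RNA, a change in the number of cells that make a keratin cannot be told apart from a change in the amount per cell. Of the 10 keratins 9 passed the low-count filter, and all 9 were called (5 higher, 4 lower; Benjamini-Hochberg adjusted p below 0.05 over all 12001 genes tested, quasi-likelihood test of edgeR). Among all genes tested 77.3% were called, 38.7% higher and 38.6% lower, so the count of calls among the keratins is to be read against that share. Changes of at least 2-fold (absolute log2 fold change of 1 or more) were less common: they were called for 8.42% of all genes tested and for 4 of the 9 keratins, KRT6A, KRT15, KRT17 and KRT8. Since the keratins were chosen with earlier results of these data known, this contrast is a description and not a test. For all 9 the CPM ranges of the groups were apart, as for 70.8% of all genes tested. An exact permutation test on mean CPM, two-sided, returned p = 0.0286 for each of the 9, which is the lowest that 70 possible assignments can give. Groups whose ranges are apart always return this value, so it adds nothing to the ranges.

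**Figure D1:**
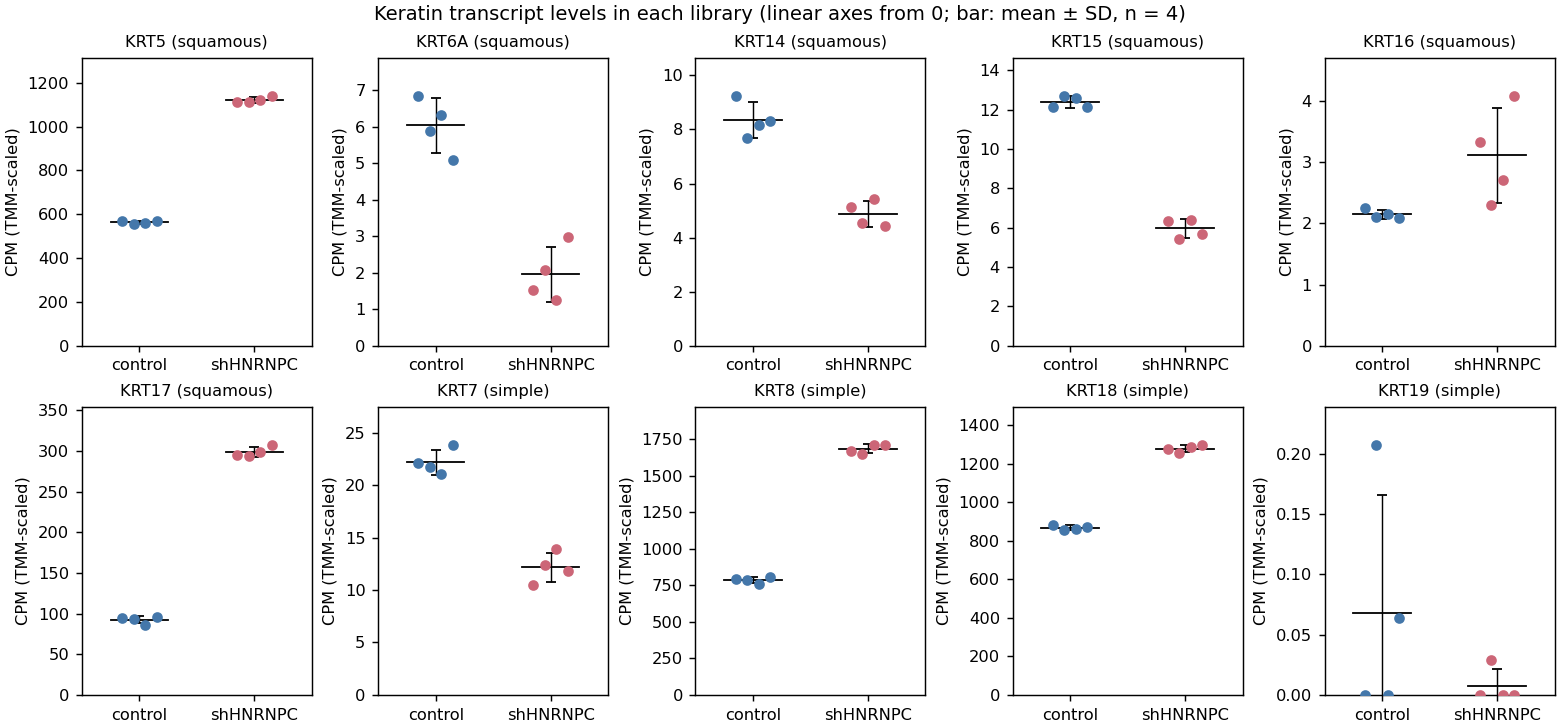
TMM-scaled CPM of the 10 keratins in each library (points), with the mean and SD of the 4 control and the 4 shHNRNPC samples, on linear axes from 0. KRT5, KRT17, KRT8, KRT18 and KRT16 lie higher in all shHNRNPC libraries, KRT6A, KRT14, KRT15 and KRT7 lie lower, and KRT19 is close to 0 in both groups.

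KRT5, the type II keratin of the basal layer, was the most abundant squamous keratin. It had 571, 557, 561 and 569 CPM in control samples 1 to 4 and 1111, 1114, 1123 and 1142 CPM in shHNRNPC samples 1 to 4. Each knockdown library thus held about as much KRT5 as any other and far more than every control. The level was 1.99 times that of control, a log2 fold change of 0.99 (SE 0.0179, edgeR adjusted p = 1.8e-51).

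KRT14, the type I partner of KRT5 in the basal layer, went the other way. Its levels were 9.25, 7.67, 8.15 and 8.32 CPM in the control samples and 5.15, 4.55, 5.43 and 4.42 CPM in the shHNRNPC samples. It was already scarce in the control samples, where 259 to 313 reads were counted per library, and fell further in every knockdown library (log2 fold change -0.77, SE 0.106, edgeR adjusted p = 1.9e-09). KRT15, an alternative basal partner, had 12.1, 12.7, 12.6 and 12.1 CPM in the control samples and 6.36, 5.44, 6.40 and 5.70 CPM after knockdown. The 2 groups were each tight and KRT15 was left at 48.2% of control (log2 fold change -1.05, SE 0.0904, edgeR adjusted p = 1.5e-16).

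The stress-induced squamous keratins did not move together. KRT17 had 94.4, 93.0, 86.0 and 95.6 CPM in the control samples and 295, 294, 299 and 308 CPM after knockdown. This was the largest rise of the 10 (log2 fold change 1.70, SE 0.0258, edgeR adjusted p = 6.3e-53), and it moved KRT17 from rank 2809 to rank 538 of the tested genes by CPM. KRT6A, a type II partner of KRT16 and KRT17, had 6.86, 5.90, 6.34 and 5.08 CPM in the control samples and 1.53, 2.07, 1.27 and 2.98 CPM in the knockdown samples. It showed the largest fall of the listed keratins that were tested (log2 fold change -1.62, SE 0.174, edgeR adjusted p = 1.5e-10), from 160 to 232 counts per library down to 42 to 89.

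KRT16, a further type I partner of KRT6A, was the least certain of the called keratins. Its levels were 2.25, 2.10, 2.15 and 2.10 CPM in the control samples and 3.34, 2.30, 2.72 and 4.09 CPM after knockdown. The knockdown libraries spread widely, and replicate 2 lay just above the controls (log2 fold change 0.52, SE 0.178, edgeR adjusted p = 0.00654). Replicates 1 and 4 were both above replicates 2 and 3. Without shHNRNPC replicate 4 the log2 fold change was 0.37 and the call was lost (edgeR adjusted p = 0.0672), and without replicates 1 and 4 it was 0.23 (edgeR adjusted p = 0.338), within a range of 0.00114 to 0.338 over all alternatives.

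KRT8, the type II keratin of simple epithelia, had 791, 789, 759 and 803 CPM in the control samples and 1668, 1651, 1712 and 1708 CPM after knockdown. It rose 2.14-fold (log2 fold change 1.10, SE 0.0183, edgeR adjusted p = 1.8e-53) and became the 24th most abundant of the tested genes by CPM, from rank 108. KRT18, its type I partner, had 885, 855, 861 and 873 CPM in the control samples and 1277, 1257, 1287 and 1300.1 CPM after knockdown. KRT18 thus rose in every knockdown library too, but only 1.47-fold (log2 fold change 0.56, SE 0.0177, edgeR adjusted p = 4.3e-38). Exons of KRT8 and KRT18 overlap on opposite strands, over 7.63% and 16.3% of their exon bases, and without a stated strand setting these reads cannot be told apart. These shares count the exons of all transcripts. For the 1 transcript per gene used for lengths, 12.2% of the 150-base words of KRT18 occurred in KRT8, on either strand. Of those of KRT8, 0% occurred in another gene.

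KRT7, a type II simple keratin typical of glandular and ductal cells, fell. It had 22.1, 21.7, 21.0 and 23.9 CPM in the control samples and 10.5, 12.4, 13.9 and 11.8 CPM after knockdown, with replicates 1 and 4 below replicates 2 and 3. Its level was left at 54.8% of control (log2 fold change -0.86, SE 0.0698, edgeR adjusted p = 1.6e-17), and 7.67% of its exon bases overlap other genes. KRT19, a small type I keratin found in many simple epithelia, had 0, 7, 0 and 2 counts in the control libraries and 0, 1, 0 and 0 counts in the knockdown libraries. It did not pass the low-count filter and was not tested. A count of 0 allows up to 3 counts in a library, or 0.0863 to 0.107 CPM here with counting error alone considered. Of the 10 KRT19 counts in all, 7 came from control replicate 2, and the groups overlapped (exact permutation test, two-sided, p = 0.429). With no low-count filter KRT19 was called lower by edgeR (adjusted p = 0.0445), and no fold is given because nearly all its libraries lie at or under the floor.

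Grouped by starting level, all 4 keratins above 50 CPM in the control samples rose, and of the 5 tested ones below it 4 fell, a division chosen after the values were seen. Of all genes tested at 50 CPM or more, 45.1% rose and 41.5% fell, and of those below it 34.0% rose and 36.5% fell. By class, 3 of 6 squamous keratins rose and 3 fell (median log2 fold change -0.12), while 2 of the 3 tested simple keratins rose and 1 fell (median 0.56), beside a median of -0.01 for all genes tested.

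**Figure D2:**
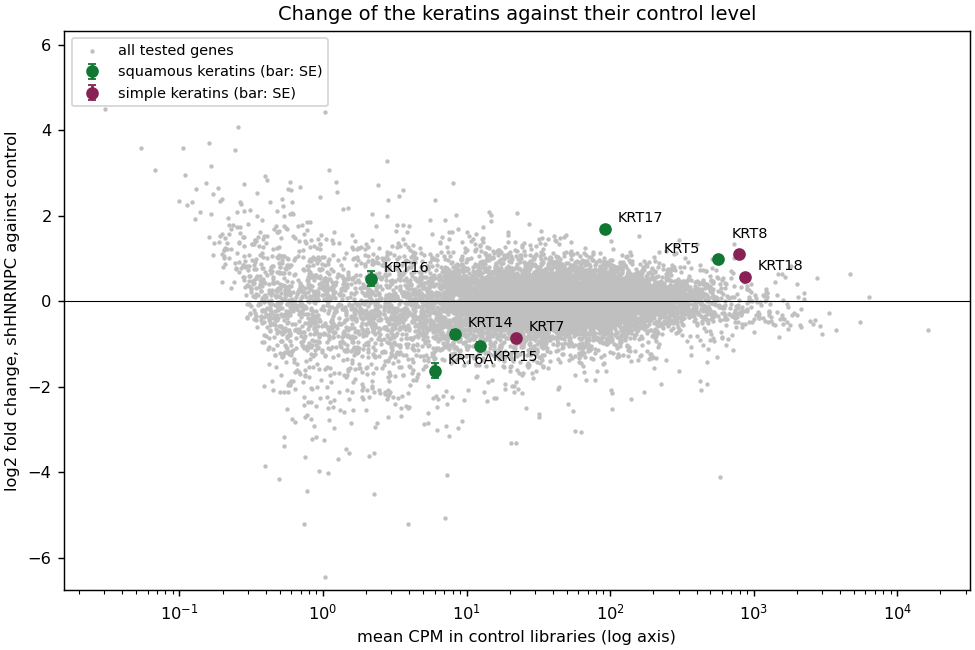
Log2 fold change (shHNRNPC against control, bars: SE) against the mean CPM in the control libraries on a log axis, for all tested genes in grey and the 9 tested keratins in color. KRT17, KRT8, KRT5 and KRT18 sit above 0 on the right, and KRT6A, KRT14, KRT15 and KRT7 below 0 at lower levels.

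To compare levels between genes, CPM were divided by transcript length. In the control samples the order per kilobase was KRT18 (612 ± 9.49), KRT8 (448 ± 10.7), KRT5 (223 ± 2.61), KRT17 (60.8 ± 2.83), KRT7 (12.6 ± 0.691), KRT15 (5.17 ± 0.127), KRT14 (5.02 ± 0.398), KRT6A (2.62 ± 0.325) and KRT16 (1.31 ± 0.0421; SD, n = 4). Among neighbours in this order only the ranges of KRT15 and KRT14 overlapped. After knockdown KRT8 (960.0, range 941 to 975) came first, an order that depends on the gene model, then KRT18 (902 ± 12.8), KRT5 (444 ± 5.39), KRT17 (197 ± 4.17) and KRT7 (6.93 ± 0.812). At the low end KRT14 (2.94 ± 0.290) and KRT15 (2.50 ± 0.200) overlapped again, as did KRT15 and KRT16 (1.89 ± 0.473), and KRT16 lay above KRT6A (0.850 ± 0.328) in every library. The place of KRT15 and its overlaps also depend on the gene model: 2394 bases were used, 1368 are coding, and the longest coding transcript has 5237. In plain CPM KRT15 lay above KRT14 in control (12.1 to 12.7 against 7.67 to 9.25). After knockdown KRT15 (5.44 to 6.40 CPM) was above KRT14 (4.42 to 5.43) and KRT16 (2.30 to 4.09).

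Both class sums rose, the squamous sum by more. Per kilobase the 6 squamous keratins together had 293 to 303 CPM in control and 641 to 663 CPM in knockdown libraries, a 2.18-fold rise. The 4 simple keratins together went from 1051 to 1087 CPM up to 1833 to 1895 CPM, a 1.74-fold rise. The ratio of squamous to simple keratin was 0.279, 0.277, 0.278 and 0.277 in control samples 1 to 4 and 0.346, 0.350, 0.343 and 0.350 after knockdown, so simple keratin transcripts outnumbered squamous ones in all 8 libraries. The ratio was 1.25 times as high after knockdown, and 1.12 to 1.30 times over the alternatives tried. Single genes did not all follow the sums. KRT5 rose more than KRT18 (1.99-fold against 1.47-fold) but less than KRT8 (2.14-fold). Per kilobase, KRT5 to KRT8 went from 0.490 to 0.512 in the control samples down to 0.455 to 0.468 after knockdown. These sums are given without a test, since the keratins were chosen with results of these data known.

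**Figure D3:**
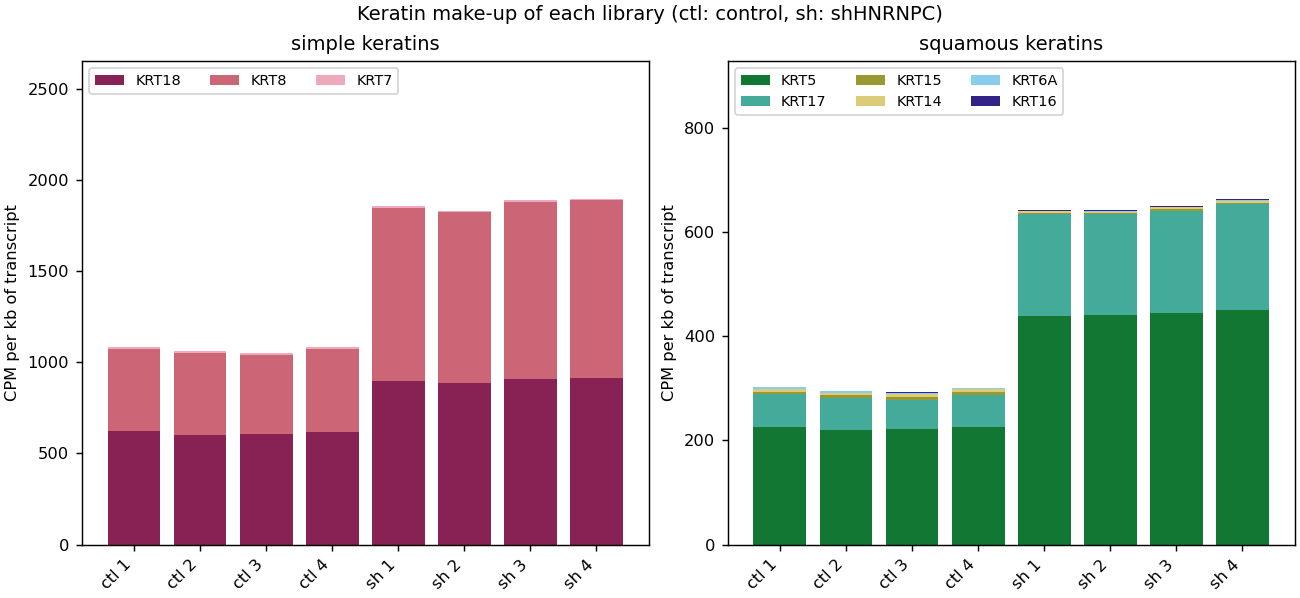
CPM per kilobase of transcript in each library (ctl, control; sh, shHNRNPC; numbers are replicates), stacked by gene for the simple keratins (left) and the squamous keratins (right), with KRT19 left out because it is near 0. KRT8 and KRT18 make up nearly the whole simple sum, and KRT5 and KRT17 nearly the whole squamous sum, in every library.

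A few genes carried these sums. By CPM, KRT5 was 82.3 ± 0.420% of the squamous keratins in the control samples and 78.1 ± 0.199% after knockdown (SD, n = 4), while KRT17 went from 13.5 ± 0.498% to 20.8 ± 0.139%. Of the simple keratins KRT8 made up 46.9 ± 0.522% and then 56.6 ± 0.158%. KRT18 took 51.8 ± 0.560% of the simple keratins before and 43.0 ± 0.199% after knockdown. Together the 10 genes took 0.234% to 0.241% of all counts in control and 0.432% to 0.444% in knockdown libraries.

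Ratios between assembly partners shifted as well. KRT8 to KRT18, per kilobase, was 0.723, 0.746, 0.714 and 0.744 in the control samples and 1.06, 1.06, 1.08 and 1.06 after knockdown, 1.45 times as high. Which partner was in excess after knockdown depends on the gene model: with the longest coding transcripts, a setting chosen after seeing the data, the knockdown ratio was 0.960 to 0.977, and per kilobase of coding sequence 1.16 to 1.18. Among the basal pair, KRT5 to KRT14 went from 40.6 to 47.7 in the control samples up to 136 to 169, and KRT5 to KRT15 from 41.5 to 44.6 up to 165 to 194. KRT6A to KRT16 fell from 1.73 to 2.17 down to 0.326 to 0.641, and KRT6A to KRT17 was 0.0995 times its control value. The ratio of squamous type II to squamous type I transcripts went from 3.12 ± 0.112 to 2.17 ± 0.0222 (SD, n = 4).

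**Figure D4:**
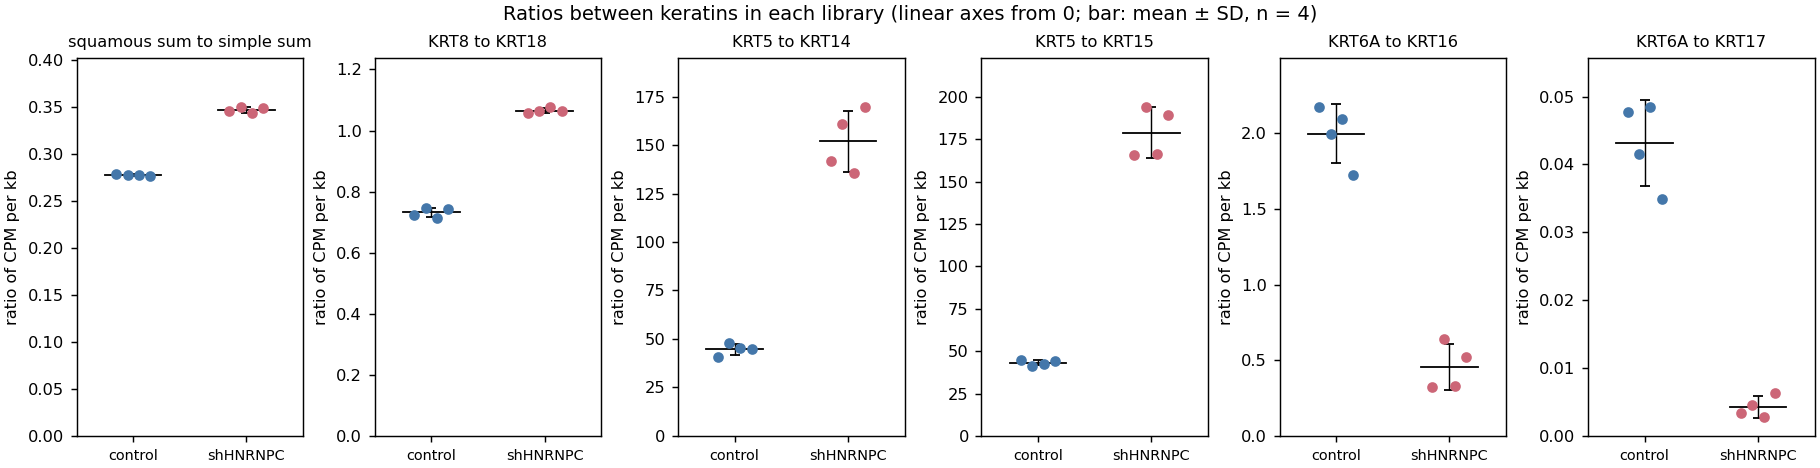
Ratios of CPM per kilobase in each library (points), with the mean and SD of 4 control and 4 shHNRNPC samples on linear axes from 0. Squamous to simple, KRT8 to KRT18, KRT5 to KRT14 and KRT5 to KRT15 are higher in every shHNRNPC library, and KRT6A to KRT16 and KRT6A to KRT17 are lower.

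Over all 38 keratin genes of the table, type II transcripts per kilobase rose 1.96-fold and type I transcripts 1.61-fold. Their ratio went from 1.12 ± 0.0129 in the control samples to 1.36 ± 0.00824 after knockdown (SD, n = 4), with no overlap between the groups. KRT80, a type II keratin of many epithelia, contributed 86.3 ± 0.832 CPM per kilobase in the control samples and 106 ± 1.27 after knockdown.

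The genes lie in 2 clusters, and some neighbours moved together while others did not. On chromosome 12 (RefSeq, GRCh38.p14) KRT6A (52487176 to 52493257), which fell, is separated by 21.3 kb from KRT5 (52514575 to 52520394), which rose. KRT8 (52897191 to 52949860) and KRT18 (52948855 to 52952906), the only type I keratin of that cluster, overlap head to head, and both rose. KRT7 (52233243 to 52255853) lies 231 kb before KRT6A and fell. On chromosome 17 KRT15 (41513745 to 41518890) and KRT14 (41582279 to 41586895) fell, whereas KRT16 (41609778 to 41612767) and KRT17 (41619442 to 41624575) rose, with 6.67 kb between the last 2. KRT19 (41523617 to 41528308) lies 4.73 kb from KRT15. Along chromosome 17 the log2 fold changes thus ran in order from -1.05 for KRT15 through -0.77 for KRT14 and 0.52 for KRT16 to 1.70 for KRT17, a description of 4 genes with no test.

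**Figure D5:**
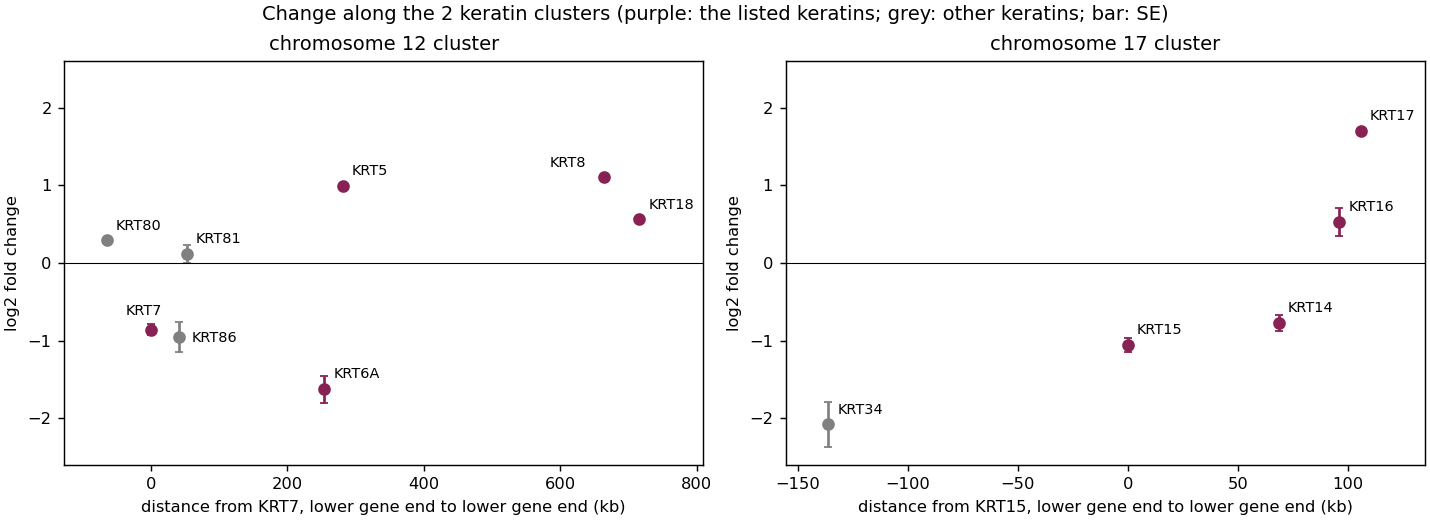
Log2 fold change (bars: SE) of tested keratins against the distance in kb from KRT7 on chromosome 12 and from KRT15 on chromosome 17, with the listed keratins in purple and others in grey; KRT10, farther away on chromosome 17, is not drawn. KRT6A and KRT5 lie side by side with changes of -1.62 and 0.99, and on chromosome 17 the values run from KRT34 at -2.08 to KRT17 at 1.70.

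Of the 28 other keratin genes 5 passed the filter, and the other 23 had at most 9 counts in any library. KRT80 rose from 333 ± 3.21 CPM to 407 ± 4.89 CPM (SD, n = 4; a log2 fold change of 0.29, SE 0.0195, edgeR adjusted p = 3.4e-21). KRT34, a type I hair keratin, fell from 1.89 ± 0.459 to 0.436 ± 0.195 CPM (-2.08). KRT86, a type II hair keratin, fell from 2.79 ± 0.341 to 1.44 ± 0.223 CPM (-0.96), but 23.5% of its 150-base words occur in KRT81. KRT81 (log2 fold change 0.12) and KRT10 (0.10), a keratin of differentiated epidermis, did not pass the test (edgeR adjusted p = 0.343 and 0.115). Of the 150-base words of KRT81, 25.6% occur in KRT86.

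Intermediate filaments outside the keratins were measured beside them. Of 7 tested, 3 rose, 1 fell and 3 did not pass, with a median log2 fold change of 0.12, beside 38.7% higher and 38.6% lower among all genes tested (median -0.01). VIM, the vimentin of mesenchymal cells, was low and fell from 7.44 ± 1.44 CPM to 3.53 ± 0.410 CPM (SD, n = 4; -1.07), with 24.4% of exon bases overlapping other genes. LMNB1 (0.92) and LMNB2 (0.26), which encode B-type lamins of the nuclear envelope, and SYNM (0.23, 27.7% of exon bases overlapping), which encodes synemin, rose.

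Of 13 genes listed as linkers or organisers of keratin filaments, 9 rose, 3 fell and 1 did not pass the test (median 0.20). Among all genes tested 38.7% were higher and 38.6% lower. EPPK1, which encodes the keratin-binding epiplakin, had 13.0 ± 0.830 CPM before and 36.7 ± 1.38 CPM after knockdown (SD, n = 4; a log2 fold change of 1.49, SE 0.0561, edgeR adjusted p = 5.5e-34). The plakins EVPL (0.65) and PPL (0.42) and the desmosomal plaque gene PKP2 (0.64) also rose. The 3 falls were DST (-0.41), PKP3 (-0.31) and TCHP (-0.11).

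Transcription factors of epithelial cells rose in 10 of 16 tested cases and fell in 4 (median 0.22), where all genes gave 38.7% higher and 38.6% lower. EHF, an ETS factor of epithelia, fell from 21.4 ± 1.33 to 5.35 ± 0.672 CPM (SD, n = 4; -1.99), and KLF4, a driver of squamous differentiation, from 33.6 ± 1.51 to 16.7 ± 0.527 CPM (-1.01). GRHL1 rose from 10.8 ± 0.757 to 21.7 ± 1.70 CPM (1.01), as did OVOL1 (0.57, 27.1% of exon bases overlapping). TP63 fell by 0.45 on the log2 scale. The squamous markers outside the keratins, which include TP63, fell in 8 of 11 tested cases and rose in 2 (median -0.27), against 38.6% of all genes lower and 38.7% higher. ITGA6 (-0.81), DSG3 (-0.56) and LAMB3 (-0.38) were among the falls, and TRIM29 (0.37) and SFN (0.10) were the 2 rises. The summed level of all 12 squamous markers went from 2702 to 2728 CPM in the control libraries to 2226 to 2255 CPM after knockdown.

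Of 23 symbols listed for the cornified envelope and late differentiation, 16 had a row in the count table. LORICRIN and LOR, which name 1 gene, had none. Of the genes with a row 7 passed the filter: 3 rose, 3 fell and 1 did not pass the test (median 0.14). Among all genes tested 38.7% were higher and 38.6% lower. SCEL (-1.34), TGM1 (-0.63) and CSTA (-0.53), which encode sciellin, a transglutaminase and cystatin A, fell. FLG, the filaggrin gene, rose (0.54, edgeR adjusted p = 0.0354), from 1.04 ± 0.179 to 1.51 ± 0.249 CPM with overlap between the groups. The FLG call was lost in 6 of 15 alternatives (without control replicate 1 or 4, without shHNRNPC replicate 1, 2 or 3, and with no low-count filter), and over all 15 its edgeR adjusted p ran from 0.0150 to 0.0970.

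Markers of other cell types were low where they had a row in the count table, and their part in the keratin changes was not tested. A row existed for 10 of 15 columnar, 7 of 8 fibroblast, 3 of 8 leukocyte and 5 of 6 endothelial markers. The sums cover only these. Columnar markers summed to 6.33 to 7.55 CPM in the control libraries and 3.28 to 3.82 CPM after knockdown, with GATA6 at 7.02 and 3.42 CPM, MUC2 at 0.0678 and 0.0405 CPM and HNF4A at 0.0238 and 0.00888 CPM. Fibroblast markers summed to 3.65 to 3.97 CPM and then 8.38 to 9.53 CPM, of which COL1A1 held 3.25 and 7.86 CPM, LUM 0.197 and 0.597 CPM and PDGFRB 0.261 and 0.410 CPM. Leukocyte markers summed to 1.93 to 3.49 CPM and 2.56 to 2.73 CPM, led by CSF1R (2.50 and 2.32 CPM), CD14 (0.0982 and 0.320 CPM) and LYZ (0.0153 and 0 CPM). Endothelial markers summed to 2.19 to 2.52 CPM and 1.24 to 1.91 CPM, led by VWF (1.70 and 0.765 CPM), CDH5 (0.419 and 0.481 CPM) and PECAM1 (0.182 and 0.164 CPM).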

How the data were processed

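The table the authors deposited holds un-normalised read counts. Per the labels' protocols, TRIzol RNA went into a VAHTS Universal library kit, and per the series design text fastp removed poor reads. The build is hg38 per the submitters' processing notes. No aligner, counter, annotation or strand setting is named in those sources.

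Genes were kept with filterByExpr (minimum count 10, minimum total 15), scaled with TMM and tested with edgeR 4.0.16 (glmQLFit, robust; glmQLFTest; R 4.3.3) on the group term. The threshold was an adjusted p of 0.05 over all genes tested. SE was taken as the absolute log2 fold change over the square root of F. Lengths are of the shortest principal coding transcript in GENCODE release 29. By rule, other keratins with at least 1 CPM were named, and from each list up to 4 called genes with the largest change, or the 3 most abundant for other cell types. The falls among the keratin linkers and the rises among the squamous markers were named in addition. The keratins and lists were chosen with earlier results of these data known. Alternatives were DESeq2 1.42.0, other scalings and filters, left-out libraries and a replicate block.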

Additional observations from a re-analysis of the deposited data

How the results depend on the processing

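Across 15 alternatives KRT5, KRT6A, KRT14, KRT15, KRT17, KRT7, KRT8 and KRT18 kept their direction and their call. KRT19 was tested, and called lower (adjusted p = 0.0445), only with no low-count filter. KRT16 kept its direction but lost its call without shHNRNPC replicate 4 (0.37) and without replicates 1 and 4 (0.23), and over single left-out libraries its log2 fold change ran from 0.37 to 0.65. With no low-count filter more genes were tested, and 6 other keratins, 4 other intermediate filaments and 5 differentiation genes were lower. Over single left-out libraries 1 to 2 other keratins were higher (2 without shHNRNPC replicate 3, when KRT10 was called at 0.14) and 1 to 2 other intermediate filaments were lower (2 without control replicate 2 or shHNRNPC replicate 2). FLG lost its call with no low-count filter (adjusted p = 0.0520) and without any 1 of control replicates 1 and 4 or shHNRNPC replicates 1, 2 and 3 (0.0650 to 0.0970). PDGFRB was called without shHNRNPC replicate 1 (0.94), and CSF1R and CDH5, which did not pass the test, changed sign over single left-out libraries: CSF1R ran from -0.236 to 0.0488 (the latter without control replicate 1) and CDH5 from -0.0188 (without control replicate 3) to 0.329. The rise of the squamous to simple ratio was 1.18 with plain CPM, 1.22 per kilobase of coding sequence (a setting chosen after seeing the data), 1.30 without KRT5 and KRT18, and 1.12 without KRT6A, KRT14, KRT16 and KRT17. The squamous sum rose 2.10-fold with plain CPM, 2.74-fold without KRT5 and 1.95-fold without those 4, and the simple sum 2.10-fold without KRT18. The ratio of KRT8 to KRT18 after knockdown was 1.32 with plain CPM, 1.17 per kilobase of coding sequence and 0.967 per kilobase of the longest coding transcripts, against 1.06. With a replicate block 5 of the 10 keratins were higher and 4 lower, as without it. Same-numbered samples did not deviate together (correlations -0.06 to 0.02), which gave no sign of pairing by number. The correlations cannot exclude a pairing that left no shared deviation, and the labels state none. KRT6A, KRT14, KRT15 and KRT16 rest on 42 to 429 counts per library, which limits their precision.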
